A study of Homo sapiens with 40 samples.

Results

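The RNA levels of 10 genes that act on chromatin were followed through breast epithelial spheres and breast carcinoma cells: the high mobility group AT-hook genes HMGA1 and HMGA2, the Polycomb methyltransferases EZH2 and EZH1, the DNA methyltransferases DNMT1, DNMT3A and DNMT3B, the DNMT1 partner UHRF1, and the 5-methylcytosine oxidases TET1 and TET2. They were listed by symbol under a rule that uses no measured value, though earlier results of these data were known. They make up 10 of the 60708 genes counted. All 10 passed the filter on low counts in every comparison. The data were RNA-seq counts of 24 libraries in 8 groups of 3. The labels call the libraries of a group biological replicates without naming separate cultures, so p-values measure the spread between these libraries.

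The study asked how SMAD signalling and transcription factors downstream of it act on proliferation and stemness in mammary cells. MI-spheres were grown from MCF-10A, an immortalized breast epithelial line, in ultra-low attachment plates, and MII-spheres from its HRAS-transformed derivative in the same way. Both were left untreated (Ctrl) or received TGF-β1 at 2.5 ng/ml for 16 h (TGFβ). MDA-MB-231, a triple-negative breast cancer line, was grown as monolayers in DMEM with serum, and gave 4 groups: untreated cells (WT), cells labelled as a CRISPR/Cas9 knockout of SNAI2, the gene of SLUG (SLUG KO), WT cells with a scrambled control siRNA (Csi), and WT cells with siRNAs against SMAD2, SMAD3 and SMAD4 (siSMAD2/3/4). Knockout cells were expanded from single-cell colonies, and the labels do not say whether the 3 libraries came from 1 clone or several. The sphere lines differ in HRAS and in their passage history, and MDA-MB-231 differs from both in origin, medium and culture form, so none of these contrasts isolates a single factor.

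Between 14124688 and 38406952 fragments per library were counted on genes. HRAS was at 39.7 ± 0.899 CPM (TMM-scaled counts relative to library size; mean ± SD, n = 3) in MI Ctrl and at 217 ± 3.56 CPM in MII Ctrl. In siSMAD2/3/4 libraries SMAD2, SMAD3 and SMAD4 fell by 1.92, 0.69 and 1.72 on the log2 scale. SNAI2 RNA went against the knockout label as far as its direction: it was 33.0, 22.4 and 35.2 CPM in the WT libraries and 66.2, 61.4 and 67.3 CPM in those labelled SLUG KO, a log2 fold-change of 1.10 ± 0.21 (SE; adjusted p = 0.0399), and 0.94 (adjusted p = 2.54e-06) without WT replicate 2. A count over the whole gene does not report a small coding lesion, so the labels are used as given. WT replicate 2 stood apart: over 22194 genes its log2 CPM correlated with the other WT libraries at r = 0.952 to 0.957, against 0.989 between those 2, and the calls of the 10 genes that use it are given with and without it. CDH1, the epithelial cadherin, had group means of 527 to 716 CPM in spheres and 1.23 to 17.8 CPM in MDA-MB-231 cells. VIM, the mesenchymal filament vimentin, had group means of 1.71 to 8.03 CPM in spheres and 732 to 1007 CPM in MDA-MB-231 cells. KRT5, a basal keratin, was at 0 in every WT and SLUG KO library. Not all epithelial and mesenchymal markers went this way. In MDA-MB-231 cells LAMB3 had group means of 448 to 608 CPM and ITGB4 of 351 to 581 CPM, against 467 to 966 and 451 to 533 in spheres. CDH2, a mesenchymal cadherin, had group means of 1.18 to 2.28 CPM in MDA-MB-231 cells and 1.54 to 10.3 CPM in spheres. The 4 leukocyte markers together reached at most 0.738 CPM in any library. Bulk RNA cannot tell fewer cells of a type from less RNA per cell, for any gene below.

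HMGA proteins bind the minor groove of AT-rich DNA and bend it, and HMGA2 is normally silent in adult tissue and returns in many carcinomas. EZH2 and EZH1 are the alternative catalytic subunits of Polycomb repressive complex 2 (PRC2), which methylates histone H3 at lysine 27; EZH2 is typical of dividing cells and EZH1 of resting ones. DNMT1 copies methylation onto newly made DNA, to which UHRF1 brings it by reading hemimethylated CpG, while DNMT3A and DNMT3B can set new methylation and TET enzymes start its removal. UHRF1, DNMT1 and EZH2 are known targets of E2F factors, which turn genes on as cells enter S phase.

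Promoter sequence is shown for UHRF1 and EZH1, because only their promoters held a match in the search below. The RefSeq promoter table (GRCh38.p14) held 21 starts for 9 of the genes, and HMGA2 was not among them. The 250 bases before each start were searched on both strands for the E2F words TTTCCCGC, TTTCGCGC, TTTGCCGC and TTTGGCGC. At least 1 word stood in 979 of all 35116 promoters (2.788%), in 2 promoters of UHRF1 and in the promoter of EZH1, and in none of the other promoters of the genes studied. The stretches below read 5′ to 3′ on the strand of the gene, with the word in capitals.
UHRF1, chr19:4909471-4909500, plus strand: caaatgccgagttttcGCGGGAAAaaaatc
UHRF1, chr19:4909954-4910021, plus strand: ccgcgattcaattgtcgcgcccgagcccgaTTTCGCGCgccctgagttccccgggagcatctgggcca
EZH1, chr17:42745118-42745185, minus strand: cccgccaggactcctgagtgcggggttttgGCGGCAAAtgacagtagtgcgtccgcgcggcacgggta
The words begin 14, 160 and 115 bases before their starts. The first UHRF1 stretch lies in an exon of another annotated UHRF1 transcript, and the others lie in no annotated exon. A match of letters is not a binding site, and a promoter without one says nothing of E2F.

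On GRCh38, HMGA1 (ENSG00000137309.20) spans chr6:34236873-34246231 and HMGA2 (ENSG00000149948.14) chr12:65824460-65966291. EZH2 (ENSG00000106462.12) spans chr7:148807257-148884321 and EZH1 (ENSG00000108799.13) chr17:42700275-42745049. DNMT1 (ENSG00000130816.17) spans chr19:10133342-10231286, and UHRF1 (ENSG00000276043.5) lies on the same chromosome at chr19:4903080-4962154. DNMT3A (ENSG00000119772.18) spans chr2:25227855-25342590 and DNMT3B (ENSG00000088305.18) chr20:32762385-32809356. TET1 (ENSG00000138336.9) spans chr10:68560337-68694487 and TET2 (ENSG00000168769.14) chr4:105145875-105279816. Counting covered all exons and ignored the strand. HMGA2 shares 384 exon bases (2.548% of its exons) with HMGA2-AS1 on the opposite strand, and DNMT1 shares 83 (0.5397%) with S1PR2. Fragments on the shared bases were counted to neither gene.

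Csi and siSMAD2/3/4 libraries were of another sequencing batch than the other groups. Differences in level between them and those groups cannot be told apart from batch. HMGA1 was the most abundant of the 10 in every group when levels were set per kilobase of exon, with one TMM scaling over all 24 libraries. It reached 26.8 ± 1.18 CPM per kilobase in MII Ctrl and 720 ± 18.3 in Csi (mean ± SD, n = 3), between the 93.8th and the 99.9th percentile of protein-coding genes. HMGA2 held 0.309 ± 0.0483 CPM per kilobase in MII Ctrl and 5.02 ± 0.0934 in Csi. HMGA1 thus exceeded HMGA2 per kilobase in all groups, with mean ratios from 64.8 in MI TGFβ to 144 in Csi. UHRF1 spanned 1.70 ± 0.345 CPM per kilobase in MII Ctrl to 51.3 ± 21.6 in WT, and DNMT1 2.22 ± 0.0938 to 28.3 ± 12.4 in the same groups. EZH2 spanned 1.89 ± 0.0901 CPM per kilobase in MII Ctrl to 11.5 ± 1.92 in WT. These 5 genes had their lowest group mean in MII Ctrl and their higher means in MDA-MB-231 cells. The WT means without replicate 2 (n = 2) were 38.9 CPM per kilobase for UHRF1, 21.2 for DNMT1, 12.5 for EZH2 and 249 for HMGA1.

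DNMT3B had the same outline and was also lowest in MII Ctrl: it held 0.329 ± 0.0682 CPM per kilobase there and 2.74 ± 0.202 in Csi. The other 4 genes kept closer levels. DNMT3A stayed between 0.642 ± 0.0755 in SLUG KO and 1.12 ± 0.0446 in Csi, and the ranges of all neighbouring groups in its order overlapped. EZH1 was lowest in MI TGFβ at 3.81 ± 0.0937 CPM per kilobase and highest in SLUG KO at 7.75 ± 0.285. The TET genes were the only members with their highest group mean in a sphere group: TET2 at 4.59 ± 0.207 CPM per kilobase in MII TGFβ and TET1 at 0.794 ± 0.0706 in MII Ctrl, with lows of 1.92 ± 0.172 and 0.418 ± 0.0455 in SLUG KO. TET2 exceeded TET1 per kilobase by mean ratios of 4.61 to 8.60.

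Ordering the 8 groups of each gene by level gave 70 pairs of neighbours, and the ranges of CPM overlapped in 35, and in 32 without WT replicate 2. Pairs of Csi or siSMAD2/3/4 with any other group also differ in sequencing batch. For HMGA1 the overlapping neighbours were siSMAD2/3/4 with WT, WT with SLUG KO, MI TGFβ with MI Ctrl, and MI Ctrl with MII TGFβ. For HMGA2, Csi, WT and siSMAD2/3/4 overlapped in turn, as did MI TGFβ and MI Ctrl, and SLUG KO lay below the other MDA-MB-231 groups. For EZH2 only MI TGFβ and MII Ctrl overlapped. UHRF1 groups were separate except MI TGFβ and MI Ctrl, from WT down through SLUG KO, Csi, siSMAD2/3/4 and MII TGFβ to MII Ctrl. For DNMT1, WT overlapped Csi, and MI TGFβ, MI Ctrl and MII Ctrl overlapped in turn. For EZH1 the stimulated sphere groups overlapped each other and lay below all others. WT replicate 2 lay apart from the other WT libraries in HMGA1, DNMT1, UHRF1 and DNMT3A. Its HMGA1 level of 1662 CPM fell within the Csi range of 1627 to 1707 CPM, but the others lay above the Csi range. DNMT1 was at 655 CPM against 312 to 328, UHRF1 at 392 against 113 to 116, and DNMT3A at 17.5 against 14.7 to 15.8.

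**Figure D1:**
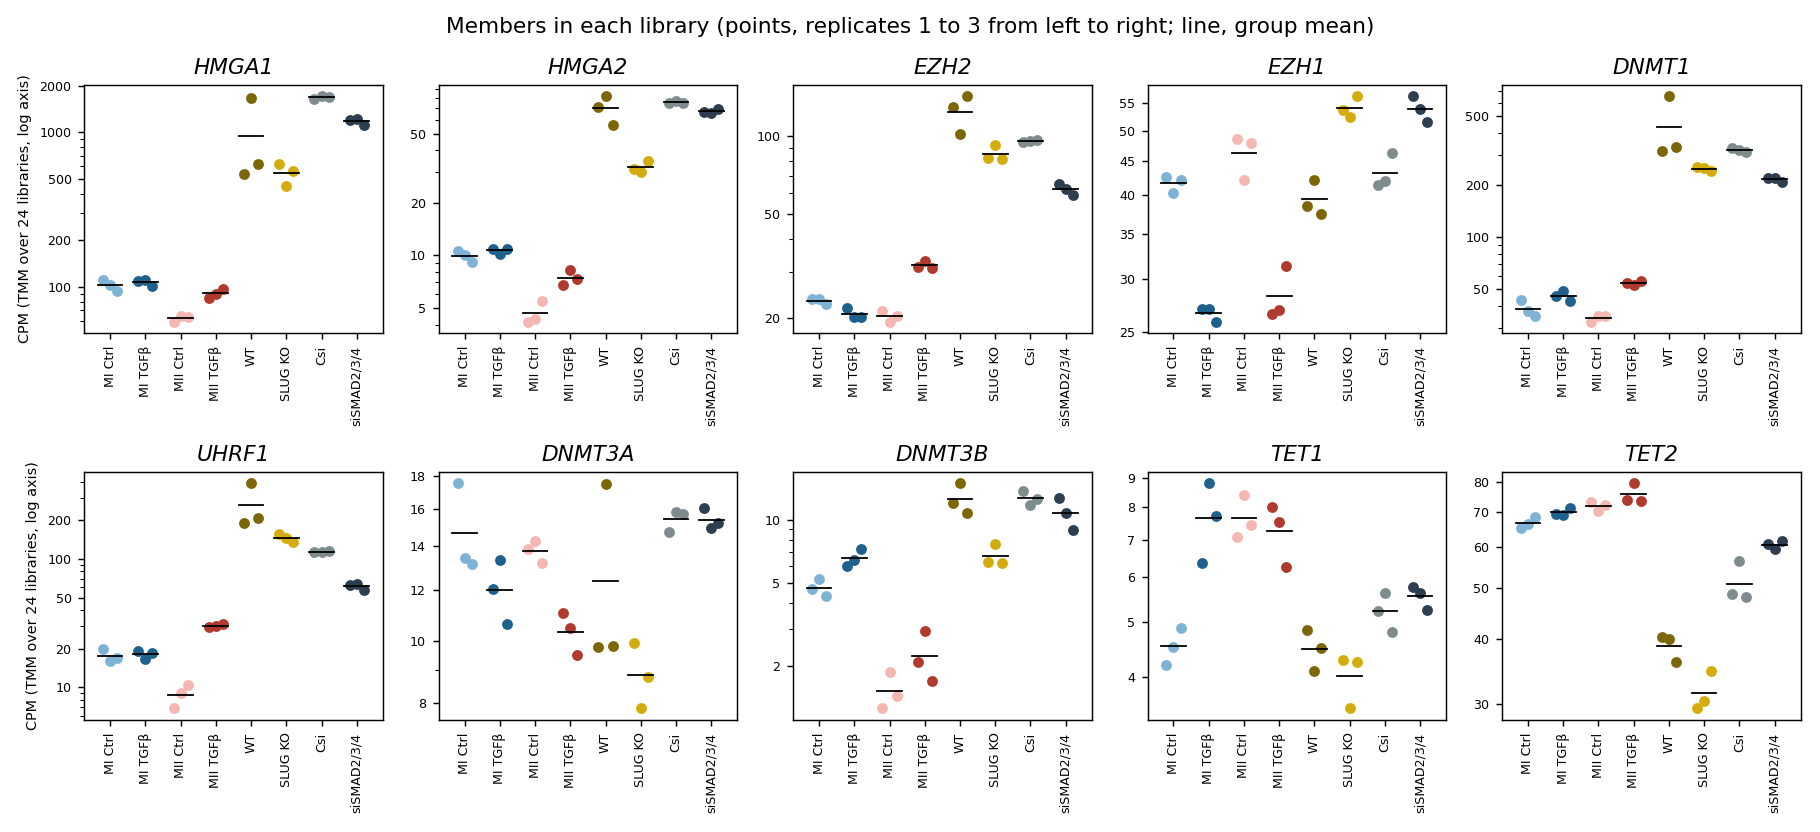
CPM (vertical log axis, one TMM scaling over 24 libraries) of the 10 genes in each library of the 8 groups, with points for replicates 1 to 3 and a line at the group mean. HMGA1, HMGA2, EZH2, DNMT1 and UHRF1 lie higher in all MDA-MB-231 groups than in spheres, TET2 lies lower, and WT replicate 2 stands high for HMGA1, DNMT1, UHRF1 and DNMT3A.

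For 6 of the 10 genes the response to TGFβ differed between the 2 sphere lines, by the interaction term given below. In MII-spheres UHRF1 rose 3.32-fold and HMGA1, HMGA2, EZH2 and DNMT1 rose by 1.41-fold to 1.57-fold, while EZH1 and DNMT3A fell. In MI-spheres EZH1 and DNMT3A fell as well, EZH2 fell slightly, and DNMT3B and TET1 rose. DNMT3B was not among the genes whose response differed: its log2 fold-change was 0.39 in MI- and 0.48 in MII-spheres, where it was not called. A gene is said to rise or fall where edgeR's quasi-likelihood test gave an adjusted p (Benjamini-Hochberg, over all genes tested) under 0.05, and a DEG has in addition an absolute log2 fold-change above 1. In MI-spheres 2 members rose and 3 fell, beside 28.7% and 27.4% of the 16863 genes tested, and none was a DEG, beside 13.6%. In MII-spheres 5 rose and 2 fell, beside 29.9% and 27.6% of 16396 genes, and UHRF1 was the DEG, beside 10.6%. The CPM of the next paragraphs are scaled over the 12 sphere libraries, and the errors of log2 fold-changes are SE.

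UHRF1, the reader that recruits DNMT1, was at 6.74, 8.92 and 10.2 CPM in the 3 MII Ctrl libraries and at 28.9, 29.2 and 30.6 CPM in the MII TGFβ libraries. In MI-spheres it was at 19.4, 15.6 and 16.5 CPM without and at 17.9, 15.9 and 16.9 CPM with TGFβ. All stimulated MII libraries thus lay above all others, while the 2 MI groups overlapped. The log2 fold-change was 1.73 ± 0.096 (adjusted p = 7.30e-22) in MII- and -0.053 ± 0.093 (adjusted p = 0.649) in MI-spheres. DNMT1, the maintenance methyltransferase, was at 32.1, 34.4 and 34.5 CPM in MII Ctrl and at 53.3, 52.0 and 54.9 CPM in MII TGFβ. It was at 42.0, 36.8 and 34.1 CPM in MI Ctrl and at 42.7, 46.5 and 39.2 CPM in MI TGFβ. DNMT1 rose in MII-spheres without overlap, by a log2 fold-change of 0.63 ± 0.061 (adjusted p = 6.30e-13), and in MI-spheres, where the groups overlapped, gave 0.16 ± 0.080 (adjusted p = 0.0993). Without MI Ctrl replicate 1 or MI TGFβ replicate 3 the MI change of DNMT1 passed the test (0.25, adjusted p = 0.0243, and 0.23, adjusted p = 0.00498).

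EZH2 was at 21.1, 19.1 and 20.1 CPM in MII Ctrl and at 30.6, 32.6 and 30.8 CPM in MII TGFβ. In MI-spheres it was at 22.9, 23.1 and 22.1 CPM without and at 20.4, 19.1 and 18.6 CPM with TGFβ. The PRC2 methyltransferase of dividing cells thus moved in opposite directions, by 0.62 ± 0.073 (adjusted p = 3.35e-10) in MII- and by -0.26 ± 0.077 (adjusted p = 0.00792) in MI-spheres. EZH1, its counterpart of resting cells, fell in both lines: from 41.5, 39.4 and 41.2 CPM to 25.3, 25.7 and 23.9 CPM in MI-spheres, and from 48.1, 41.6 and 47.2 CPM to 26.0, 26.5 and 31.04 CPM in MII-spheres. No stimulated library reached an unstimulated one. The log2 fold-changes of EZH1 were -0.73 ± 0.068 (adjusted p = 1.22e-08) and -0.74 ± 0.070 (adjusted p = 4.40e-13). The ratio of EZH2 to EZH1 per kilobase went from 0.362 ± 0.0165 (SD, n = 3) to 0.504 ± 0.0207 in MI- and from 0.286 ± 0.0109 to 0.734 ± 0.0812 in MII-spheres. The MI change of EZH2 missed the threshold with DESeq2 (adjusted p = 0.109).

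**Figure D2:**
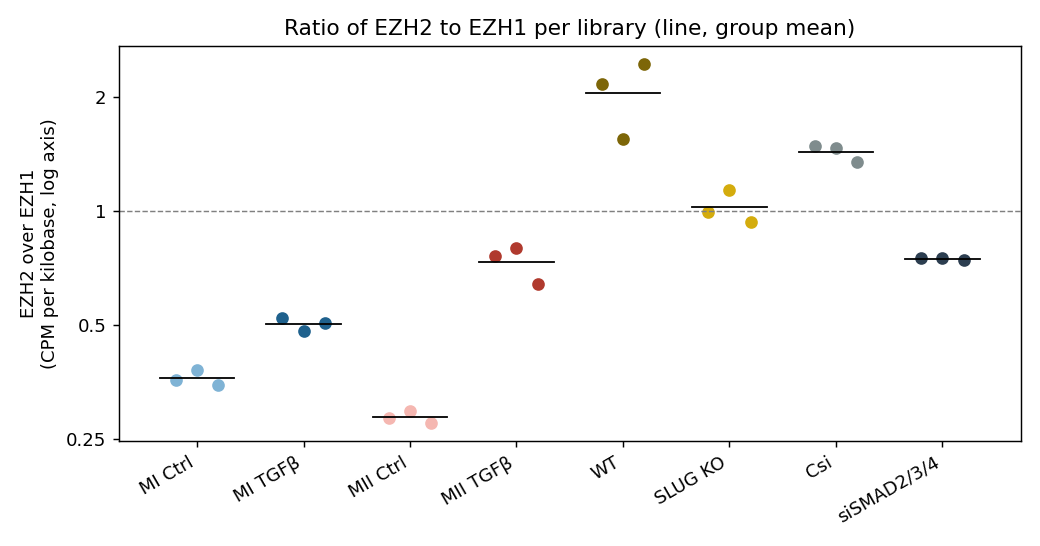
Ratio of EZH2 to EZH1 in CPM per kilobase of exon (vertical log axis) in each of 24 libraries, with a line at the group mean and a dashed line at 1. The ratio is below 1 in all sphere libraries and higher with TGFβ in both lines, and it is above 1 in all WT and Csi libraries and at 0.749 ± 0.00478 (SD) in siSMAD2/3/4.

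HMGA1 was at 58.5, 63.5 and 62.3 CPM in MII Ctrl and at 82.1, 88.5 and 96.1 CPM in MII TGFβ, against 107.4, 99.4 and 91.8 CPM in MI Ctrl and 102.6, 104.1 and 93.3 CPM in MI TGFβ. HMGA2 was at 4.12, 4.25 and 5.41 CPM in MII Ctrl and at 6.63, 8.12 and 7.26 CPM in MII TGFβ, against 10.3, 9.80 and 8.96 CPM in MI Ctrl and 10.2, 9.74 and 10.0 CPM in MI TGFβ. Both DNA-bending proteins followed 1 pattern: the MII groups did not overlap, the MI groups did, and the stimulated MII libraries came nearer to the MI level. HMGA1 rose in MII-spheres by 0.50 ± 0.054 (adjusted p = 2.67e-11) and HMGA2 by 0.65 ± 0.15 (adjusted p = 0.000232). The MI log2 fold-changes were -0.018 ± 0.063 (adjusted p = 0.819) and 0.020 ± 0.10 (adjusted p = 0.886), and both changed sign under other settings.

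DNMT3A and DNMT3B, which set new methylation, went apart in MI-spheres. DNMT3A went from 17.1, 13.1 and 12.8 CPM to 11.3, 12.7 and 9.77 CPM in MI-spheres and from 13.7, 14.03 and 13.01 CPM to 10.8, 10.3 and 9.41 CPM in MII-spheres. It fell in both, by 0.39 ± 0.12 on the log2 scale (adjusted p = 0.00929) and by 0.45 ± 0.10 (adjusted p = 0.000223). DNMT3B went from 4.54, 5.09 and 4.203 CPM to 5.66, 6.08 and 6.67 CPM in MI-spheres and from 1.24, 1.84 and 1.42 CPM to 2.05, 2.88 and 1.68 CPM in MII-spheres. It rose in MI-spheres by 0.39 ± 0.14 (adjusted p = 0.0199). In MII-spheres the log2 fold-change of DNMT3B was 0.48 ± 0.27 (adjusted p = 0.124) with overlapping groups. The MI calls of both genes were near the threshold: DESeq2 gave adjusted p = 0.0740 for DNMT3A and 0.0912 for DNMT3B. Without MI Ctrl replicate 1 DNMT3A gave -0.23 (adjusted p = 0.147), and DNMT3B missed the threshold without MI Ctrl replicate 1, MI Ctrl replicate 3 or MI TGFβ replicate 3 (adjusted p = 0.0598, 0.0674 and 0.0609).

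TET1 was at 4.09, 4.43 and 4.76 CPM in MI Ctrl and at 5.97, 8.37 and 7.11 CPM in MI TGFβ. It was at 6.999, 8.27 and 7.32 CPM in MII Ctrl and at 7.82, 7.40 and 6.18 CPM in MII TGFβ. The unstimulated MI libraries were thus the low ones, and TET1 rose there by 0.68 ± 0.15 (adjusted p = 0.000474), against -0.13 ± 0.13 (adjusted p = 0.427) in MII-spheres. TET2, the more abundant of these oxidases, was at 63.5, 65.0 and 66.8 CPM in MI Ctrl, at 65.2, 65.5 and 65.8 CPM in MI TGFβ, at 72.3, 69.2 and 71.2 CPM in MII Ctrl and at 72.3, 78.2 and 72.8 CPM in MII TGFβ. It passed the test in neither line, with log2 fold-changes of -0.013 ± 0.055 (adjusted p = 0.852) and 0.040 ± 0.052 (adjusted p = 0.517). The MII value rose to 0.14 (adjusted p = 0.0182) with an offset for gene length.

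Whether the lines' responses differed was tested by an interaction term fitted over the 12 sphere libraries. The response was more positive in MII-spheres for 5 of the genes and more negative for 1, beside 12.6% and 9.75% of 18591 genes. UHRF1 differed most, by 1.79 ± 0.14 on the log2 scale (adjusted p = 6.38e-13), and was the only one above 1, beside 5.84%. EZH2 differed by 0.88 ± 0.11 (adjusted p = 2.00e-08), HMGA2 by 0.64 ± 0.18 (adjusted p = 0.00642), HMGA1 by 0.53 ± 0.086 (adjusted p = 8.34e-06) and DNMT1 by 0.48 ± 0.10 (adjusted p = 0.000398). TET1 differed by -0.80 ± 0.20 (adjusted p = 0.00223). For EZH1 the difference was 0.0028 ± 0.10 (adjusted p = 0.993), for DNMT3A -0.056 ± 0.16, for DNMT3B 0.083 ± 0.28 and for TET2 0.063 ± 0.076. These errors leave room for differences of some size, most of all in DNMT3B.

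**Figure D3:**
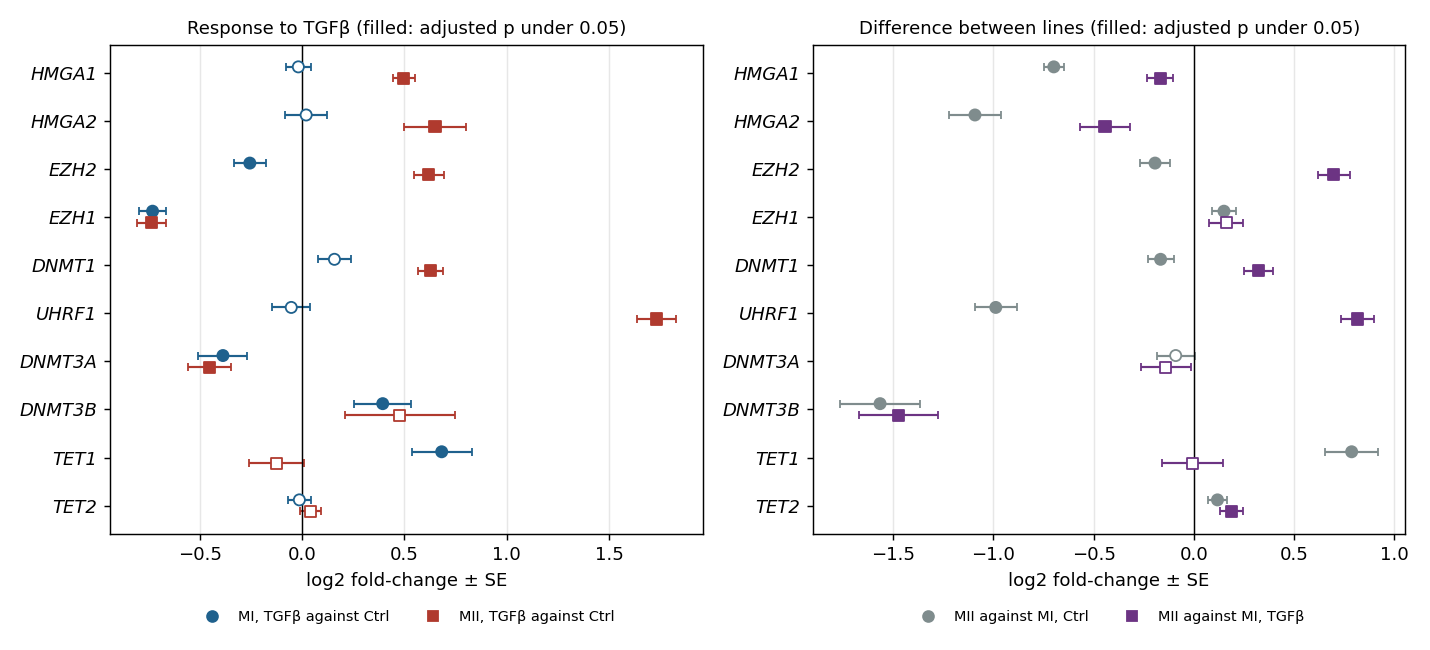
Log2 fold-change ± SE (horizontal axis) of the 10 genes, at left for TGFβ against Ctrl in MI- and MII-spheres and at right for MII- against MI-spheres without and with TGFβ, with filled symbols at an adjusted p under 0.05. UHRF1 stands out at 1.73 in MII-spheres beside -0.053 in MI-spheres, while both lines' symbols for EZH1 lie at -0.73 and -0.74.

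Before stimulation, MII-spheres held less RNA of most of these genes than MI-spheres. DNMT3B and HMGA2 were lower DEGs, at log2 fold-changes of -1.56 ± 0.20 (adjusted p = 1.20e-09) and -1.09 ± 0.13 (adjusted p = 9.17e-11). UHRF1 (-0.99 ± 0.10, adjusted p = 3.32e-12) and HMGA1 (-0.70 ± 0.050, adjusted p = 4.46e-18) were also lower without overlap of the libraries listed above. EZH2 (-0.19 ± 0.073, adjusted p = 0.0175) and DNMT1 (-0.17 ± 0.065, adjusted p = 0.0225) were slightly lower. TET1 was higher, by 0.79 ± 0.13 (adjusted p = 9.23e-07), and EZH1 and TET2 by 0.15 ± 0.060 and 0.12 ± 0.049 (adjusted p = 0.0256 and 0.0323). DNMT3A gave -0.091 ± 0.095 (adjusted p = 0.412). In all 3 were higher and 6 lower, beside 31.7% and 32.5% of 17862 genes, and 2 were DEGs, beside 20.1%. The 4 smallest of these calls were not firm: DESeq2 called 5 of the genes, with adjusted p of 0.0653 for EZH2, 0.190 for EZH1, 0.0680 for DNMT1 and 0.215 for TET2. EZH1 missed the threshold without MI Ctrl replicate 2 or 3 or MII Ctrl replicate 1 or 3 (adjusted p from 0.0516 to 0.143), TET2 without MI Ctrl replicate 1 or 2 or MII Ctrl replicate 1 or 3 (0.0861 to 0.150), DNMT1 without MI Ctrl replicate 1 or MII Ctrl replicate 1 (0.336 and 0.0788), and EZH2 without MII Ctrl replicate 2 (0.0976).

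After stimulation the order of the lines was turned for UHRF1, EZH2 and DNMT1. The order before it was not firm for EZH2 and DNMT1, and the unstimulated groups overlapped in DNMT1. UHRF1 was higher in MII- than in MI-spheres by 0.81 ± 0.082 (adjusted p = 9.22e-09), EZH2 by 0.70 ± 0.080 (adjusted p = 7.41e-08) and DNMT1 by 0.32 ± 0.073 (adjusted p = 0.000543). DNMT3B stayed a lower DEG at -1.47 ± 0.20 (adjusted p = 6.83e-07), HMGA2 was lower by 0.44 ± 0.12 (adjusted p = 0.00360) and HMGA1 by 0.17 ± 0.064 (adjusted p = 0.0281). TET2 was higher by 0.19 ± 0.058 (adjusted p = 0.00721). TET1 gave -0.0068 ± 0.15, EZH1 0.16 ± 0.085 and DNMT3A -0.14 ± 0.12, with adjusted p of 0.972, 0.102 and 0.338. Of the 10 genes 4 were higher and 3 lower, beside 31.1% and 31.6% of 15878 genes, and 1 was a DEG, beside 19.8%. The calls of HMGA1 and TET2 were near the threshold. TET2 missed it with DESeq2 (0.16, adjusted p = 0.0721) and with no filter on low counts (adjusted p = 0.118). HMGA1 missed the threshold without MI TGFβ replicate 1 or 2 or MII TGFβ replicate 1 or 2 (adjusted p from 0.0605 to 0.190), and TET2 without MI TGFβ replicate 1 or MII TGFβ replicate 2 (0.0509 and 0.0607). These comparisons share libraries with those of TGFβ, so their values are not independent of them.

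Lists of genes that work with these enzymes were set beside a list of S-phase genes. Of 34 S-phase genes 33 rose in TGFβ-stimulated MII-spheres, with a median log2 fold-change of 1.33 beside -0.018 over all genes, among them RRM2, a subunit of ribonucleotide reductase (2.97), CDC6, a replication licensing factor (2.40), and PCNA, the sliding clamp (1.16). In MI-spheres 7 rose and 8 fell, with a median of 0.0018 beside -0.016 over all genes, and E2F1 (-0.97), E2F2 (-0.85) and CCNE2, the gene of cyclin E2 (-1.16), were lower. Before stimulation 33 were lower in MII- than in MI-spheres, with a median of -1.02 beside 0.017. After it 25 were higher and 3 lower, with a median of 0.40 beside 0.0044. The interaction was positive for 33, with a median of 1.31. How far the values of UHRF1, DNMT1, EZH2 and the HMGA genes moved with the share of cells in S phase was not tested.

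Over all genes tested, 28.7% rose and 27.4% fell in MI-spheres, and 29.9% rose and 27.6% fell in MII-spheres. The list counts for TGFβ in this and the next 2 paragraphs stand beside these shares. Of 11 tested partners of PRC2, 5 rose and 2 fell in MI-spheres (median 0.076) and 5 rose and 3 fell in MII-spheres (median 0.030). SUZ12, a core subunit, and PHF19, which helps PRC2 onto chromatin, rose in MII-spheres by 0.49 ± 0.058 and 0.91 ± 0.12, and both differed between the lines (interaction 0.42, adjusted p = 0.000194, and 0.55, adjusted p = 0.00341). PHF1, a paralog of PHF19, fell in both lines, by 0.68 ± 0.10 and 0.84 ± 0.073. Of 20 genes of PRC1, the complex that reads H3K27 methylation and ubiquitinates histone H2A, 5 rose and 8 fell in MI- and 8 rose and 6 fell in MII-spheres (medians -0.015 and 0.0057), while DESeq2 called 5 higher and 3 lower in MI- and 6 and 4 in MII-spheres. CBX7, a reader subunit, fell in both, by 0.92 ± 0.16 and 1.24 ± 0.14, and PHC1 fell in MII-spheres by 1.00 ± 0.11. Among 7 genes that remove H3K27 methylation or oppose Polycomb, none rose and 5 fell in MI-spheres (with DESeq2 none rose and 3 fell, and none rose at an unadjusted p under 0.05), and 1 rose and 6 fell in MII-spheres. The H3K4 methyltransferases KMT2D (-0.74 and -0.81) and KMT2C (-0.48 and -0.50) fell in both, the demethylase KDM6A fell in MI-spheres (-0.43), and its paralog KDM6B in MII-spheres (-0.93). The medians of these 7 were -0.39 and -0.25. Against MI-spheres, unstimulated MII-spheres had 2 PRC2 partners higher and 4 lower, 10 PRC1 genes higher and 3 lower, and 4 of the antagonists higher and 2 lower, with PHF1 (1.05), CBX2 (1.81), CBX6 (0.95) and KDM6B (0.84) higher and PHF19 (-0.90) lower. Over all genes tested, 31.7% were higher and 32.5% lower before stimulation, and 31.1% and 31.6% after it. After stimulation the counts were 3 and 4, 9 and 3, and 3 and 2. DESeq2 called fewer, with 1 PRC2 partner higher and 4 lower in each of these comparisons and 6 PRC1 genes higher and 3 lower before stimulation.

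Of 21 tested genes that assist or read DNA methylation, 9 rose and 1 fell in MI-spheres and 11 rose and 4 fell in MII-spheres, with medians of 0.077 and 0.13, and DESeq2 called 7 and 1 in MI- and 11 and 1 in MII-spheres. HELLS, a remodeller required for methylation of repeats, rose in MII-spheres by 1.65 ± 0.082 and differed between lines by 1.82 (adjusted p = 7.56e-15). IDH2, which makes 2-oxoglutarate, rose in both, by 1.15 ± 0.077 in MI- and by 0.63 ± 0.053 in MII-spheres. Its cytosolic counterpart IDH1 fell in MI-spheres by 0.54 ± 0.054. AHCY, which clears the by-product of methyl transfer, rose in MI-spheres by 0.59 ± 0.050, and MAT2A, which makes the methyl donor, fell in MII-spheres by 0.60 ± 0.042. Against MI-spheres, unstimulated MII-spheres had 6 of these genes higher and 12 lower and stimulated ones 7 and 9, with AHCY lower by 1.25 ± 0.039 and 1.38 ± 0.049. Of the 10 other high mobility group genes 6 rose in MI- and 7 in MII-spheres and none fell (none at an unadjusted p under 0.05 or with DESeq2), with medians of 0.29 and 0.41. HMGB2 (1.32 ± 0.087) and HMGB3 (1.03 ± 0.044), DNA-bending HMG-box proteins, and the nucleosome binder HMGN2 (0.83 ± 0.052) led in MII-spheres, and HMGN4 (0.64 ± 0.070), HMGB1 (0.58 ± 0.054) and HMGN2 (0.49 ± 0.055) in MI-spheres. Against MI-spheres, 1 was higher and 4 lower without and 3 higher and 5 lower with TGFβ, HMGN2 being lower by 1.42 ± 0.046 and 1.06 ± 0.053.

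HMGA2 transcripts are known targets of the let-7 miRNAs. Of 6 tested genes of the let-7 and LIN28 axis 2 rose and 4 fell in MI- and none rose and 4 fell in MII-spheres (none rose at an unadjusted p under 0.05 or with DESeq2). IGF2BP2, an RNA-binding protein whose gene HMGA2 is known to activate, fell in both by 0.69 ± 0.069 and 0.68 ± 0.058. The miRNAs were not measured. RPSAP52, a transcript antisense to HMGA2, was at 0.109 to 0.395 CPM in MII Ctrl and 0.739 to 1.39 CPM in MII TGFβ, a log2 fold-change of 1.75 ± 0.46 (adjusted p = 0.00104) on few counts.

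Markers of other cell types also moved between sphere groups, and their part in the results was not tested. The 8 basal epithelial markers summed to 3217 to 3287 CPM in MI Ctrl, 5203 to 5431 in MI TGFβ, 1996 to 2082 in MII Ctrl and 3490 to 3672 in MII TGFβ. Between MI Ctrl and MII Ctrl these markers did not move together. KRT14 went from a mean of 1.56 to 8.41 CPM and EPCAM from 62.1 to 187, while TP63 went from 51.2 to 0.620. The 6 mesenchymal markers summed to 82.4 to 84.7, 291 to 322, 146 to 153 and 167 to 181 CPM in the same order of groups. FN1 made up most of these sums, with group means of 55.3, 262, 134 and 146 CPM. AXL and ZEB2 were lower in MII Ctrl (5.17 and 0.857 CPM) than in MI Ctrl (21.3 and 2.12 CPM). VIM, ZEB1 and CDH2 were higher there, as FN1 was. The 3 endothelial markers summed to 30.4 to 33.1, 12.1 to 13.8, 114.2 to 117 and 96.9 to 108.1 CPM in that order. They did not move together. PECAM1 made up most of the MII sums, with group means of 9.79, 10.5, 104.6 and 95.3 CPM. CDH5 had means of 22.2, 2.20, 10.7 and 7.13 CPM, so it was lower in MII Ctrl than in MI Ctrl. KDR had a mean of at most 0.495 CPM in any sphere group. The 4 markers of fibroblasts and pericytes summed to 22.6 to 29.1 CPM in MI TGFβ and at most 13.4 CPM in the other sphere groups.

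In the libraries labelled SLUG KO, in which SNAI2 RNA was higher and not lower, HMGA2 was lower than in WT MDA-MB-231 cells. Without WT replicate 2, EZH2, DNMT3B, UHRF1 and DNMT1 were lower and EZH1 was higher as well. With all 6 libraries 1 of the 10 genes passed the test and none was higher, beside 1.89% of 17428 genes lower, 1.45% higher and 3.05% DEGs. At an unadjusted p under 0.05, 1 member was higher and 5 lower, beside 1395 and 1926 of 17428 genes. DESeq2 called 0 higher and 2 lower, beside 554 and 659 of 22773 genes. Without WT replicate 2 the counts were 1 higher and 5 lower, beside 16.8% and 14.4% of 17909 genes. The CPM below are scaled over these 6 libraries.

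HMGA2 was at 77.6, 88.0 and 58.6 CPM in WT and at 32.6, 32.2 and 36.7 CPM in the libraries labelled SLUG KO, with no overlap. The log2 fold-change was -1.14 ± 0.20 (adjusted p = 0.0292), and -0.996 ± 0.11 (adjusted p = 7.61e-06) without WT replicate 2. The call was lost without WT replicate 1 (adjusted p = 0.118) or without SLUG KO replicate 1, 2 or 3 (0.197, 0.186 and 0.162), while the log2 fold-change stayed between -1.27 and -0.996 whichever library was left out. Its antisense neighbour HMGA2-AS1 was at 33.4, 45.1 and 14.7 CPM in WT and at 6.16, 6.56 and 6.54 CPM in those labelled SLUG KO (log2 fold-change -2.27 ± 0.39, adjusted p = 0.0269). RPSAP52 was also lower, by 1.78 ± 0.31 (adjusted p = 0.0286). For both transcripts WT was the high group. On the scaling over 24 libraries Csi, of another sequencing batch, had means of 1.48 CPM for HMGA2-AS1 and 1.86 CPM for RPSAP52. The means were 28.9 and 6.60 CPM in WT, and 6.11 and 1.96 CPM in those labelled SLUG KO. HMGA1 gave no such difference: it was at 589, 1786 and 648 CPM in WT and at 650, 475 and 582 CPM in those labelled SLUG KO, so that WT replicate 2 alone stood high. Its log2 fold-change was -0.82 ± 0.43 (adjusted p = 0.349), and -0.11 ± 0.12 (adjusted p = 0.526) without that library.

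EZH2 was at 140, 108.6 and 148 CPM in WT and at 85.8, 98.1 and 85.0 CPM in the libraries labelled SLUG KO, and EZH1 at 42.1, 45.4 and 39.3 and at 55.9, 55.8 and 59.02 CPM. Neither gene overlapped between the groups, though neither passed the test with all libraries: EZH2 gave -0.56 ± 0.18 (adjusted p = 0.166) and EZH1 0.43 ± 0.16 (adjusted p = 0.205). Without WT replicate 2 they gave -0.67 ± 0.091 (adjusted p = 3.80e-05) and 0.50 ± 0.093 (adjusted p = 0.000747). The ratio of EZH2 to EZH1 per kilobase was 2.05 ± 0.456 (SD, n = 3) in WT, or 2.30 without WT replicate 2, and 1.02 ± 0.105 in those labelled SLUG KO.

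DNMT1 was at 347, 703 and 349 CPM in WT and at 266, 269 and 252 CPM in those labelled SLUG KO, and UHRF1 at 209, 421 and 218 and at 164, 156 and 143 CPM. In both genes the libraries labelled SLUG KO lay below all WT libraries and WT replicate 2 far above the rest. DNMT1 gave -0.83 ± 0.30 (adjusted p = 0.200) with all libraries and -0.39 ± 0.085 (adjusted p = 0.00208) without that one, and UHRF1 -0.88 ± 0.29 (adjusted p = 0.175) and -0.46 ± 0.088 (adjusted p = 0.000868). DNMT3B was at 13.2, 16.1 and 11.2 CPM in WT and at 6.54, 8.16 and 6.54 CPM in those labelled SLUG KO, with -0.93 ± 0.22 (adjusted p = 0.0744) and -0.78 ± 0.15 (adjusted p = 0.000847). This de novo enzyme passed the test with DESeq2 on all 6 libraries (-0.88, adjusted p = 0.0211). DNMT3A was at 10.7, 18.8 and 10.3 CPM in WT and at 10.3, 8.36 and 9.20 CPM in those labelled SLUG KO (-0.51 ± 0.28, adjusted p = 0.365). TET1 was at 5.29, 4.40 and 4.71 and at 4.47, 3.74 and 4.46 CPM (-0.19 ± 0.21, adjusted p = 0.658). TET2 did not overlap, at 44.02, 42.9 and 37.7 and at 30.7, 32.5 and 36.5 CPM, and its -0.32 ± 0.17 had an adjusted p of 0.344, and of 0.0502 without WT replicate 2.

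Among the partner lists no PRC2, PRC1, antagonist, DNA methylation, high mobility group or let-7 gene passed edgeR's test with all 6 libraries. At an unadjusted p under 0.05 the counts of higher and lower genes are given in that order. They were 0 and 2, 0 and 4, 0 and 3, 2 and 3, 0 and 2, and 0 and 1. Over all genes they were 1395 and 1926 of 17428. DESeq2 called 1 lower PRC1 gene and 1 lower DNA methylation gene and no other, beside 554 higher and 659 lower of 22773 genes. Without WT replicate 2 the counts were 0 and 5, 0 and 4, 1 and 3, 5 and 4, 1 and 4, and 0 and 1. Over all 17909 genes tested there, 16.8% were higher and 14.4% lower. The median of the 7 antagonists changed sign with that library, from -0.91 with it to 0.11 without it. Of 34 S-phase genes 2 were lower, CLSPN (-1.26) and RRM2 (-1.23), with a median of -0.22 beside -0.052 over all genes, and without WT replicate 2 2 were higher and 17 lower, with a median of -0.28 beside -0.010.

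In cells that received siRNAs against SMAD2, SMAD3 and SMAD4, UHRF1, EZH2, DNMT1 and HMGA1 were lower than in Csi cells by 0.52 to 0.90 on the log2 scale, and EZH1 and TET2 were higher. HMGA2 fell by less. Of the 10 genes 2 were higher and 5 lower, beside 16.3% and 19.7% of 17696 genes, and none was a DEG, beside 1.9% (DESeq2 also called 2 higher and 5 lower). The CPM are scaled over these 6 libraries.

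UHRF1 was at 115, 114 and 116 CPM in Csi and at 62.4, 64.4 and 58.3 CPM in siSMAD2/3/4, and fell by 0.90 ± 0.046 (adjusted p = 5.55e-16). DNMT1 was at 334, 319 and 314 CPM and at 218, 221 and 212 CPM, and fell by 0.57 ± 0.039 (adjusted p = 3.93e-13). The maintenance pair thus fell together without overlap. The de novo enzymes did not pass the test: DNMT3A was at 15.0, 15.9 and 15.8 and at 15.9, 15.1 and 15.4 CPM (-0.0080 ± 0.077, adjusted p = 0.952), and DNMT3B at 13.9, 11.8 and 12.7 and at 12.6, 10.9 and 9.06 CPM (-0.23 ± 0.10, adjusted p = 0.0746). EZH2 fell from 96.6, 95.4 and 96.5 to 64.8, 63.1 and 59.8 CPM, by 0.62 ± 0.046 (adjusted p = 2.31e-12). EZH1 rose from 42.2, 42.2 and 46.6 to 56.0, 54.4 and 52.2 CPM, by 0.31 ± 0.055 (adjusted p = 3.17e-05). The EZH2 to EZH1 ratio per kilobase was 1.43 ± 0.0770 (SD, n = 3) in Csi and 0.749 ± 0.00478 in siSMAD2/3/4.

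HMGA1 was at 1657, 1712 and 1701 CPM in Csi and at 1183, 1224 and 1134 CPM in siSMAD2/3/4, and fell by 0.52 ± 0.038 (adjusted p = 1.59e-12). HMGA2 was at 76.2, 77.4 and 75.1 and at 66.1, 66.4 and 69.7 CPM, and fell by 0.18 ± 0.047 (adjusted p = 0.00290), without overlap. TET2 was higher in siSMAD2/3/4, at 60.5, 59.8 and 62.4 against 49.6, 56.4 and 48.3 CPM (0.24 ± 0.055, adjusted p = 0.000762), and TET1 at 5.74, 5.67 and 5.33 against 5.32, 5.65 and 4.82 CPM gave 0.084 ± 0.12 (adjusted p = 0.640). Per the count files, siSMAD2/3/4 replicates 1 and 2 ran on another flow cell than siSMAD2/3/4 replicate 3 and the Csi libraries. With flow cell as a term HMGA2 gave -0.13 (adjusted p = 0.155) and DNMT3B -0.50 (adjusted p = 0.00709), and without siSMAD2/3/4 replicate 1 DNMT3B gave -0.36 (adjusted p = 0.0146).

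All 34 S-phase genes fell, with a median of -0.92 beside 0.0038 over all genes, among them MCM4 (-1.09), MCM3 (-0.96) and CLSPN (-1.22). Of 11 PRC2 partners 2 were higher and 6 lower (median -0.20), with PHF19 (-0.73 ± 0.042) and the histone chaperone RBBP7 (-0.67 ± 0.040) lower and JARID2 (0.33 ± 0.046) higher. Of 20 PRC1 genes 4 were higher and 4 lower (median 0.0032), and of the 7 antagonists 3 were higher and none lower (none with DESeq2 or at an unadjusted p under 0.05), KDM6B by 0.71 ± 0.057. Of 21 DNA methylation genes 3 were higher and 9 lower (median -0.054), with CDCA7 (-1.28 ± 0.082) and HELLS (-1.09 ± 0.063), partners in one remodelling complex, lowest and TET3 (0.36 ± 0.053) higher. Of 10 other high mobility group genes 1 was higher and 8 lower (median -0.27), HMGB2 by 1.06 ± 0.051. Of 7 let-7 axis genes 2 were higher and 1 lower. Whether the values of UHRF1, EZH2 and DNMT1 moved with proliferation was not tested.

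**Figure D4:**
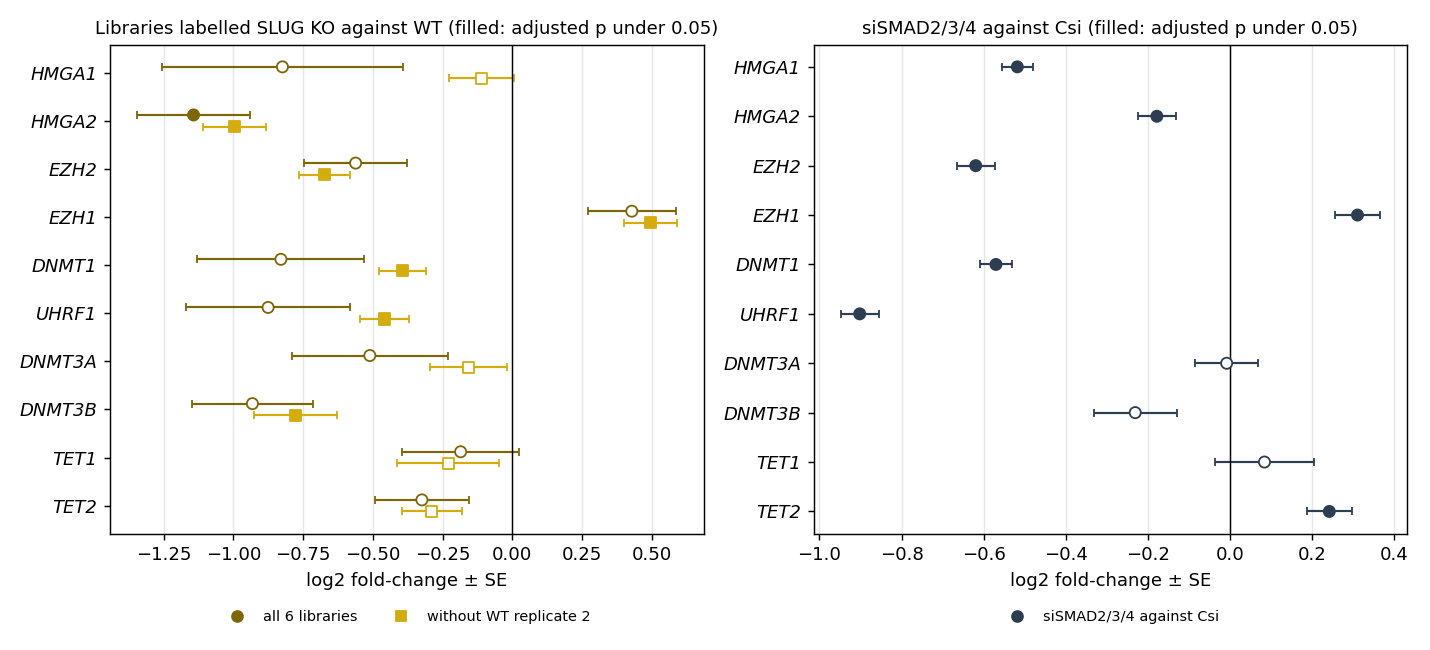
Log2 fold-change ± SE (horizontal axis) of the 10 genes in MDA-MB-231 cells, at left for libraries labelled SLUG KO against WT with all 6 libraries and without WT replicate 2, at right for siSMAD2/3/4 against Csi, with filled symbols at an adjusted p under 0.05. HMGA2 is the only filled symbol with all 6 libraries at left (-1.14), and UHRF1 is the lowest at right (-0.90).

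WT MDA-MB-231 monolayers held far more RNA of 6 of the genes than MI Ctrl spheres. The CPM in this paragraph are group means ± SD (n = 3) on one scaling over 24 libraries. UHRF1 was at 264 ± 111.1 CPM in WT against 17.6 ± 2.09 in MI Ctrl, DNMT1 at 435 ± 190 against 38.6 ± 4.17, and HMGA1 at 940 ± 626 (580 without WT replicate 2) against 102.01 ± 8.07. HMGA2 was at 69.6 ± 12.97 against 9.92 ± 0.694, EZH2 at 124 ± 20.7 against 23.3 ± 0.529, and DNMT3B at 12.6 ± 2.17 against 4.72 ± 0.448. All 6 were higher DEGs without overlap, with log2 fold-changes of 3.90 ± 0.33, 3.49 ± 0.34, 3.20 ± 0.46, 2.80 ± 0.21, 2.40 ± 0.19 and 1.41 ± 0.21 and adjusted p from 3.93e-05 for HMGA2 to 0.00118 for DNMT3B. TET2 was lower, at 38.8 ± 2.34 against 66.7 ± 1.63 CPM (-0.79 ± 0.15, adjusted p = 0.00347). EZH1 (-0.086 ± 0.15), DNMT3A (-0.26 ± 0.29) and TET1 (-0.021 ± 0.20) had overlapping groups. In all 6 were higher and 1 lower, beside 28.1% and 25.9% of 18732 genes, and 6 were DEGs, beside 44.5%.

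Without WT replicate 2 the same 6 genes were higher, with log2 fold-changes of 3.47 for UHRF1, 3.04 for DNMT1, 2.47 for HMGA1, 2.64 for HMGA2, 2.50 for EZH2 and 1.24 for DNMT3B. TET2 was lower by 0.84 and DNMT3A by 0.62 (adjusted p = 0.000766), so that 2 were lower, and the background was 36.6% higher and 38.3% lower of 19572 genes. Of 34 S-phase genes 32 were higher and 1 lower, with a median of 2.34 beside 0.059 over all genes, and without WT replicate 2 33 and 1, with a median of 2.21. Of 11 PRC2 partners 7 were higher and 1 lower with or without that library, with PHF19 at 3.96 ± 0.20. Among 20 PRC1 genes 7 were higher and 3 lower, among the 7 antagonists 2 and 0 (1 lower at an unadjusted p under 0.05, 0 with DESeq2), among 21 DNA methylation genes 6 and 7, among 10 other high mobility group genes 4 and 1, and among 6 let-7 axis genes 1 and 1. Without WT replicate 2 these counts were 11 and 6 for PRC1, 2 and 3 for the antagonists, 7 and 12 for DNA methylation genes, 5 and 2 for high mobility group genes and 3 and 2 for the let-7 axis. Line, medium and culture form differ together here and cannot be told apart.

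The genes whose levels ran most like those of each member were sought among 14425 genes, by Pearson's r of log2 CPM over the 18 libraries of the sphere, WT and SLUG KO groups. Many of these points share a cell line and culture form, and WT replicate 2 is among them, so the values are a description. Closest to HMGA1 were INCENP (r = 0.994), USP11 (0.992) and LIG1 (0.992), and to HMGA2 NCAPD2 (r = 0.992), CDKN2C (0.989) and TUBGCP3 (0.985). INCENP, LIG1 and NCAPD2 code for a chromosomal passenger protein, a DNA ligase and a condensin subunit. Closest to EZH2 were STIL (r = 0.994), POLA1 (0.990) and CEP152 (0.986), to DNMT1 ABCF1 (r = 0.994), INCENP (0.993) and PTPN14 (0.993), and to UHRF1 KIFC1 (r = 0.994), CHAF1A (0.992) and CHAF1B (0.992). CHAF1A and CHAF1B, subunits of chromatin assembly factor 1, are 2 of the S-phase genes counted above. Among the nearest to EZH1 were CCDC80 (r = 0.942) and GADD45B (0.917), lower values than those of the genes before it. The nearest to DNMT3A were ZZEF1 (r = 0.927), AKT1S1 (0.922) and WDR90 (0.900), to DNMT3B FAM120C (r = 0.977), IPO8 (0.974) and TMCC2 (0.969), to TET1 ADGRA3 (r = 0.923), TNFRSF10D (0.911) and ANKRD50 (0.911), and to TET2 SETBP1 (r = 0.990), NAALADL2 (0.990) and PLXDC2 (0.989).

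Among the members themselves DNMT1 ran closest to HMGA1 (r = 0.984) and UHRF1 (r = 0.983), HMGA2 ran closest to HMGA1 (r = 0.970) and EZH2 to DNMT1 (r = 0.968), over the same 18 libraries. The paralogs EZH2 and EZH1 gave 0.422 and TET1 and TET2 0.750, while TET2 ran opposite to HMGA1 at -0.900.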

How the data were processed

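RNA-seq of 24 libraries in 8 groups of 3 was analysed, with groups taken from the labels. ATAC-seq samples of the series, 16 in number, were not used here. The deposited counts are fragments per gene that the authors obtained with featureCounts 2.0.0 on GENCODE 38 exons, after read trimming (Trimmomatic) and 2-pass STAR alignment to GRCh38. Per the file headers, pairs with mapping quality of at least 30 were counted without strand, and fragments of several places or genes were left out, so values of genes with near-identical copies or overlaps are minimum values. Symbols came from GENCODE 44 (60463 of 60708 IDs, 99.6%).

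Counts were filtered with edgeR 4.0.16 (filterByExpr, minimum count 10), scaled by TMM and tested with its quasi-likelihood test in R 4.3.3, for each comparison on its own groups and for the interaction on the 12 sphere libraries. A gene was called at a Benjamini-Hochberg adjusted p under 0.05, and a DEG also had an absolute log2 fold-change above 1. CPM for likeness used a prior count of 2. DESeq2 (version 1.42.0 here) was an alternative, as were other size factors, no filter or a stricter one, a gene-length offset, a replicate block, flow cell as a term, all sphere libraries in 1 fit, and leaving out each library. The code was tested on simulated data with known changes. Figures were drawn with matplotlib 3.10.9.

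The genes and lists were chosen with earlier results of these data known. Named besides the members were, for each list and comparison, up to 3 called genes with the smallest adjusted p and no overlap of CPM, the 3 genes most alike to each member (1 of them is not reported here), the targeted genes and the genes that overlap a member.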

Additional observations from a re-analysis of the deposited data

Results flagged for a closer look

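The responses of 6 of the 10 genes to TGFβ differed between the sphere lines by the interaction term of edgeR's quasi-likelihood test, given as the log2 fold-change in MII- minus that in MI-spheres. The difference was 1.79 for UHRF1, 0.88 for EZH2, 0.64 for HMGA2, 0.53 for HMGA1, 0.48 for DNMT1 and -0.80 for TET1. UHRF1, HMGA1, HMGA2 and DNMT1 passed the test in MII-spheres and TET1 in MI-spheres, while EZH2 passed in both with opposite signs. None of the 6 interaction calls was lost under any alternative tried. The EZH2 call in MI-spheres was lost with DESeq2 (adjusted p = 0.109). Groups of 3 libraries are too small for the test of single outlying samples used here, so none was run.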

How the results depend on the processing

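Replicate numbers did not pair the libraries: same-numbered libraries of compared groups correlated at -0.185 to 0.0655 in their deviations from the group means, and no pair was above 0.1. Of the 10 genes, 5 were called for TGFβ in MI-spheres and 2 with DESeq2, and 9 between unstimulated lines and 5 with DESeq2. For the libraries labelled SLUG KO against WT the count of 1 became 2 with DESeq2, 0 with a replicate block and 0 with a replicate block with gene-length offset, and ranged from 0 to 6 when 1 library was left out, with 6 without WT replicate 2 and 0 without WT replicate 1 or any 1 of the 3 SLUG KO libraries. HMGA2 then gave -1.13 (adjusted p = 0.125) with the block and -1.02 (adjusted p = 0.146) with block and length offset. Over all genes this comparison called 581, against 1213 with DESeq2, 973 with no filter, 260 with at least 10 counts in every library, 255 with the block, 186 with block and length offset, and 133 to 5592 leaving out 1 library. WT against MI Ctrl called 10107, and 6527 with the stricter filter. In MI-spheres the block brought DNMT1 past the threshold (0.16, adjusted p = 0.0276), as did the length offset and 1 fit of all spheres (adjusted p = 0.0136 and 0.0315), and in siSMAD2/3/4 it brought DNMT3B past it (-0.24, adjusted p = 0.0333). TET2 and HMGA1 lost their calls between stimulated lines with the length offset (adjusted p = 0.129 and 0.105), and TET2 also with DESeq2 and with no filter (0.0721 and 0.118). The causes were not tested.

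Signs changed in 11 uncalled values near 0. For TGFβ in MI-spheres HMGA1 gave 0.020 with DESeq2 and 0.0035 in 1 fit of all spheres, HMGA2 -0.016 with the stricter filter, and TET2 0.025 with DESeq2, 0.065 with the length offset, 0.064 with block and length offset and 0.0094 in 1 fit of all spheres. TET1 between stimulated lines gave 0.0055, and DNMT3A in siSMAD2/3/4 gave 0.0029, with the stricter filter. The interaction of EZH1 gave -0.0078 with DESeq2, -0.0091 with its size factors, -0.00062 with the stricter filter, -0.0090 with the length offset, -0.00019 with the replicate block and -0.012 with both. Leaving out 1 library, the ranges were -0.059 to 0.045 for HMGA1, -0.018 to 0.073 for HMGA2, -0.11 to 0.056 for UHRF1 and -0.028 to 0.018 for TET2 in MI-spheres, -0.17 to 0.062 for DNMT3A between unstimulated and -0.13 to 0.11 for TET1 between stimulated lines, -0.12 to 0.042 for EZH1, -0.19 to 0.30 for DNMT3B and -0.0070 to 0.077 for TET2 in the interaction, -0.029 to 0.018 for DNMT3A in siSMAD2/3/4, and -0.11 to 0.017 for TET1 in WT against MI Ctrl. No setting moved the median of all genes by over 0.0726. Groups of 3 limit the precision, most of all for DNMT3B, TET1 and HMGA2 in spheres, which had few counts.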

Other observations

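HOX genes, classic targets of Polycomb repression, were mostly too low to test: of 39, 18 passed the filter in MI- and 15 in MII-spheres. TGFβ raised 2 and lowered 3 in MI-spheres, and raised 0 and lowered 5 in MII-spheres (0 raised at an unadjusted p under 0.05 and 0 with DESeq2). Between unstimulated lines 7 of 18 were higher and 7 lower in MII-spheres, and between stimulated lines 5 of 16 and 6. In WT MDA-MB-231 cells 5 of 21 were higher and 15 lower than in MI Ctrl, beside 28.1% and 25.9% of all genes tested, and 4 of 23 and 18 without WT replicate 2, beside 36.6% and 38.3%. In the libraries labelled SLUG KO none of 6 passed (0 at an unadjusted p under 0.05 and 0 with DESeq2), and with siSMAD2/3/4 0 of 14 were higher and 1 lower (0 higher at an unadjusted p under 0.05 and 0 with DESeq2).

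Germline genes, which DNA methylation commonly keeps silent, were nearly all below the filter in spheres, where 1 of 16 was tested in each line: SYCP3, a protein of the meiotic chromosome axis, which fell in both, though DESeq2 called 0 of 3 germline genes lower in MII-spheres. In WT against MI Ctrl 2 of 4 were higher and 1 lower, beside 28.1% and 25.9% of all genes tested. Without WT replicate 2 the counts were 3 of 5 and 1, beside 36.6% and 38.3%. In the libraries labelled SLUG KO 0 of 4 were higher and 1 lower, beside 1.45% and 1.89%. There 1 and 1 passed at an unadjusted p under 0.05, and DESeq2 called 0 and 2. Without WT replicate 2 that comparison gave 0 of 5 and 2, beside 16.8% and 14.4%. With siSMAD2/3/4 1 of 6 was higher and 2 lower, beside 16.3% and 19.7%. DNA methylation was not measured in these libraries.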
